A study of Mus with 18 samples.

Results

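The genes described here are the 10 that encode the receptor for lipopolysaccharide (LPS) and the proteins that first carry its signal inside the cell: Cd14, Tlr4, Ly96, Myd88, Tirap, Ticam1, Ticam2, Irak3, Irak4 and Traf6. They were taken by gene name from a table of 54532 genes, in which each name occurred once. All 10 passed the filter on low counts that left 13251 genes for testing. They were picked by name and not by a measured value, although earlier results of these data were known when they were chosen.

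LPS is the outer membrane glycolipid of Gram-negative bacteria. CD14 is a co-receptor that hands LPS to a complex of TLR4, the signalling receptor, and MD-2 (the product of Ly96), which binds the lipid part. At the plasma membrane TIRAP brings MyD88 to the receptor, and MyD88 assembles the kinase IRAK4 and other IRAK proteins, which engage the ubiquitin ligase TRAF6 and lead to NF-kB and MAP kinase activation. From endosomes TRAM (Ticam2) couples the receptor to TRIF (Ticam1), which leads to IRF3 and interferon beta. IRAK-M (Irak3) restrains the MyD88 route and is found mainly in monocytes and macrophages.

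The cells were RAW264.7, a virus-transformed line of mouse origin with macrophage properties, and RNA was taken 6 h into treatment. The 18 libraries formed 6 groups of 3. In 5 groups cells received LPS at 1 µg/mL: with the cysteine adduct of chlorogenic acid (LPS + CGACys), with the cysteine adduct of caffeic acid (LPS + CACys), with chlorogenic acid (LPS + CGA), with caffeic acid (LPS + CA), each compound at 100 µM, and with no compound (LPS). Control cells received neither LPS nor a compound. Chlorogenic acid is the ester of caffeic acid with quinic acid. No group had a compound without LPS, so what a compound did to the LPS response cannot be told apart from what it does without LPS. All groups share 1 cell line, and the labels do not state whether the 3 libraries of a group came from separate cultures. The p-values therefore cover the spread among these libraries, which may be technical.

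Library totals ran from 16105817 to 25624935 counts. The defining macrophage genes Csf1r, Spi1, Cd68 and Lyz2 were present in every library, with lowest levels of 1236, 412, 297 and 463 CPM (counts scaled to library size with trimmed mean of M values, or TMM, factors). The summed level of 8 macrophage markers ran from 3715 to 3777 CPM with LPS + CGACys, from 4092 to 4123 CPM with LPS + CACys, from 4304 to 4367 CPM with LPS + CGA, from 3863 to 4043 CPM with LPS + CA, from 4500 to 4743 CPM with LPS and from 5757 to 6045 CPM in Control. Markers of other cell types were at or near 0. Across all 18 libraries the 5 fibroblast markers summed to at most 6.88 CPM, the 5 lymphocyte markers to at most 1.40 CPM, the 6 neutrophil and mast cell markers to at most 3.87 CPM, the 4 epithelial markers to at most 0.221 CPM and the 4 dendritic cell markers to at most 6.31 CPM. Mpo, Mcpt4, Col3a1 and Siglech had no count in any library. Replicate 2 of LPS + CA stood apart, with 4.93% of its counts in ribosomal protein genes, against 3.64% to 4.29% in the other libraries. Bulk counts cannot tell fewer cells of a kind from less RNA per cell.

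**Figure D1:**
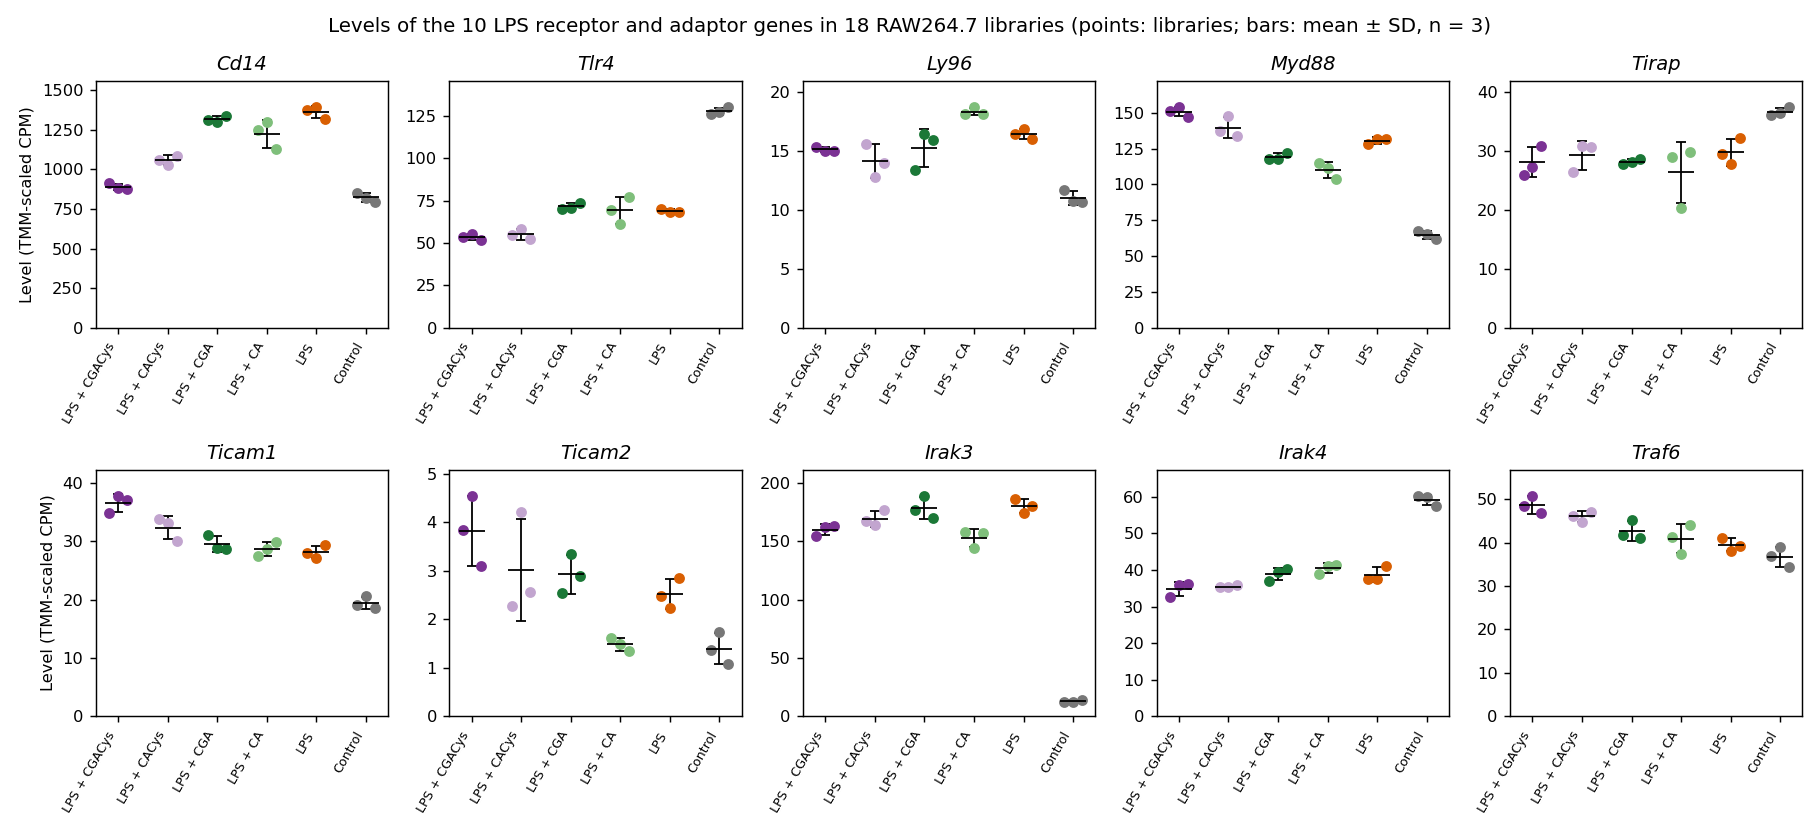
Level of each of the 10 genes (y axis, TMM-scaled CPM from 0) in the 6 groups (x axis); points are libraries, and the bar and whiskers are the mean ± SD of 3 libraries. Irak3 lies between 144 and 189 CPM in the 15 libraries with LPS and between 12.4 and 14.2 CPM in Control, while Cd14 is at 877 to 1088 CPM in the 6 adduct libraries and at 1319 to 1392 CPM with LPS.

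LPS against Control asked what endotoxin alone did to the machinery that detects it. Of the 10 genes 9 were called, 6 higher and 3 lower, a call being an adjusted p no higher than 0.05 in edgeR's quasi-likelihood test over all tested genes. The background was high: 62.2% of all tested genes were called in this comparison, 30.6% higher and 31.6% lower. All 9 called genes lay in groups that did not overlap, as did 68.6% of all tested genes. The inhibitory Irak3 rose 13.8-fold and Myd88 2.01-fold, while Tlr4 fell 1.85-fold and Irak4 1.53-fold. The median size of the log2 change, sign left aside, was 0.67 over the 10 genes and 0.39 over all tested genes.

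Among the receptor genes, Cd14 had 1375, 1392 and 1319 CPM with LPS, against 854, 819.7 and 797 CPM in Control. The groups did not overlap, and Cd14 was 1.65-fold higher (log2 0.73, SE 0.05, edgeR adjusted p = 2.98e-14). Tlr4 had 70.1, 68.4 and 68.5 CPM with LPS, against 126, 128 and 130.1 CPM in Control. Every LPS library thus lay well under every Control library, at a log2 change of -0.89 (SE 0.06, edgeR adjusted p = 1.94e-13). Ly96, whose product binds the lipid, had 16.4, 16.8 and 16.0 CPM with LPS and 11.7, 10.7 and 10.6 CPM in Control (log2 0.57, SE 0.10, edgeR adjusted p = 6.54e-06). The transcripts of the co-receptor and the lipid-binding subunit were therefore higher, and that of the signalling receptor lower, in the same libraries.

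The adaptors of both routes were measured apart. Myd88 had 128, 132 and 132 CPM with LPS and 67.7, 65.1 and 61.9 CPM in Control, a log2 change of 1.01 (SE 0.05, edgeR adjusted p = 1.16e-16). Tirap, the bridge to MyD88, was lower, at 29.4, 27.7 and 32.3 CPM with LPS, against 36.1, 36.5 and 37.4 CPM in Control (log2 -0.30, SE 0.10, edgeR adjusted p = 0.0126). Its adjusted p ran from 0.000544 to 0.0656 over the alternatives, and the call was lost without LPS replicate 2 (log2 -0.25, edgeR adjusted p = 0.0656). On the TRIF route, Ticam1 had 27.9, 27.2 and 29.3 CPM with LPS and 19.1, 20.6 and 18.5 CPM in Control (log2 0.54, SE 0.07, edgeR adjusted p = 2.58e-07). Ticam2, the bridge to TRIF, was the least abundant in counts, with 45, 40 and 53 counts with LPS and 29, 34 and 20 counts in Control. It was 1.80-fold higher, with a wide 95% interval of 0.33 to 1.38 on the log2 scale (edgeR adjusted p = 0.00507).

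Irak3 and Irak4 moved in opposite directions, and the change of the ligase gene Traf6 was not called. Irak3, which encodes the inhibitory IRAK-M, had 186, 174 and 181 CPM with LPS and 12.4, 12.5 and 14.2 CPM in Control (log2 3.79, SE 0.06, edgeR adjusted p = 5.82e-28). Irak4, the kinase at the head of the MyD88 complex, had 37.5, 37.5 and 41.1 CPM with LPS and 60.2, 59.8 and 57.6 CPM in Control (log2 -0.61, SE 0.06, edgeR adjusted p = 4.55e-10). Both sets of libraries were fully apart. Traf6 was the gene not called, at 41.0, 38.1 and 39.3 CPM with LPS and 36.9, 38.9 and 34.4 CPM in Control, where the groups overlapped. Its log2 change was 0.10 with a 95% interval of -0.04 to 0.24 (edgeR adjusted p = 0.195).

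**Figure D2:**
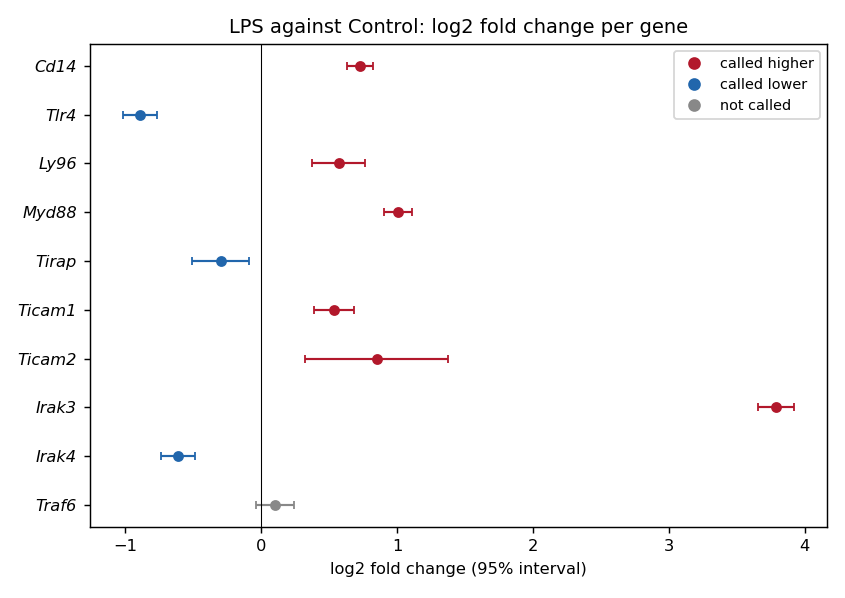
log2 fold change of each gene in LPS against Control (x axis) with its 95% interval; red points were called higher, blue points called lower and grey points not called. Irak3 lies at 3.79, far to the right of the others, Tlr4, Tirap and Irak4 lie below 0, and the interval of Traf6 includes 0.

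Each compound with LPS was then set against LPS alone, which asked whether the polyphenols or their adducts altered these transcripts in stimulated cells. These 4 comparisons share the same 3 LPS libraries. With LPS + CGACys 7 of the 10 genes were called, 4 higher and 3 lower, where 29.1% of all tested genes were called (16.1% higher and 13% lower). LPS + CACys had 3 of 10, 1 higher and 2 lower, against 14.3% of all genes (8.51% higher and 5.75% lower). LPS + CGA had 0 of 10 by edgeR, where 0.724% of all genes were called (0.0679% higher and 0.657% lower), with 1 gene, Myd88, at an unadjusted p under 0.05 and 0 called by DESeq2. LPS + CA had 3 of 10, all lower, against 7.72% of all genes (2.3% higher and 5.42% lower). Changes were small: called log2 changes lay between -0.61 and 0.60.

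Cd14 changed most among the receptor genes. It had 913, 885 and 877 CPM with LPS + CGACys and 1061, 1029.6 and 1088 CPM with LPS + CACys. It had 1313, 1298 and 1339.7 CPM with LPS + CGA, 1247, 1303 and 1128 CPM with LPS + CA, and 1375, 1392 and 1319 CPM with LPS. All 6 adduct libraries lay below all 9 libraries with LPS alone or with a parent acid, where the lowest was 1128 CPM. Cd14 fell 1.53-fold with LPS + CGACys (log2 -0.61, SE 0.05, edgeR adjusted p = 4.91e-11) and 1.29-fold with LPS + CACys (log2 -0.36, SE 0.05, edgeR adjusted p = 2.03e-06). The LPS + CGACys libraries, at 877 to 913 CPM, lay just above the Control libraries, at 797 to 854 CPM. With LPS + CA the fall was 1.11-fold (log2 -0.15, edgeR adjusted p = 0.0381), and that adjusted p ran from 0.000777 to 0.283 over the alternatives. The LPS + CA call was lost without LPS replicate 1 (edgeR adjusted p = 0.134), LPS replicate 2 (0.165) or LPS + CA replicate 3 (0.176), with upper-quartile factors (0.0917), and in a model of the LPS and LPS + CA libraries only (0.283). Over the alternatives the log2 change ran from -0.20 to -0.09. The lower end was reached without LPS + CA replicate 2, the library that stood apart (edgeR adjusted p = 0.000777). With LPS + CGA the log2 difference was -0.05, with a 95% interval of -0.14 to 0.05. The summed macrophage markers were also lowest with LPS + CGACys, at 3715 to 3777 CPM, and their part in the Cd14 result was not tested.

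Tlr4 was lower with both adducts. It had 53.3, 55.4 and 52.0 CPM with LPS + CGACys and 54.7, 58.5 and 52.2 CPM with LPS + CACys, against 70.1, 68.4 and 68.5 CPM with LPS. No adduct library reached an LPS library, at a log2 change of -0.37 (SE 0.06, edgeR adjusted p = 6.79e-05) with LPS + CGACys and -0.32 (SE 0.06, edgeR adjusted p = 0.000716) with LPS + CACys. With LPS + CGA it had 70.3, 70.8 and 73.9 CPM, and with LPS + CA 69.4, 60.9 and 77.2 CPM. The 95% intervals of the log2 difference from LPS were -0.07 to 0.18 with LPS + CGA and -0.13 to 0.13 with LPS + CA. Control, at 126 to 130.1 CPM, stayed above every library with LPS. Cd14 and Tlr4 were both lower with the adducts than with LPS alone, although LPS alone had raised the first and lowered the second.

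Ly96 was called in none of the 4 comparisons. It averaged 15.1 ± 0.176 CPM with LPS + CGACys, 14.1 ± 1.43 CPM with LPS + CACys, 15.2 ± 1.65 CPM with LPS + CGA, 18.3 ± 0.313 CPM with LPS + CA and 16.4 ± 0.408 CPM with LPS (SD, n = 3 each). Its 3 LPS + CA libraries, at 18.1 to 18.7 CPM, lay above the 3 LPS libraries, at 16.0 to 16.8 CPM, yet the log2 difference of 0.16 had a 95% interval of -0.02 to 0.34 (edgeR adjusted p = 0.341). Groups did not overlap for 20.1% of all tested genes in that comparison.

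**Figure D3:**
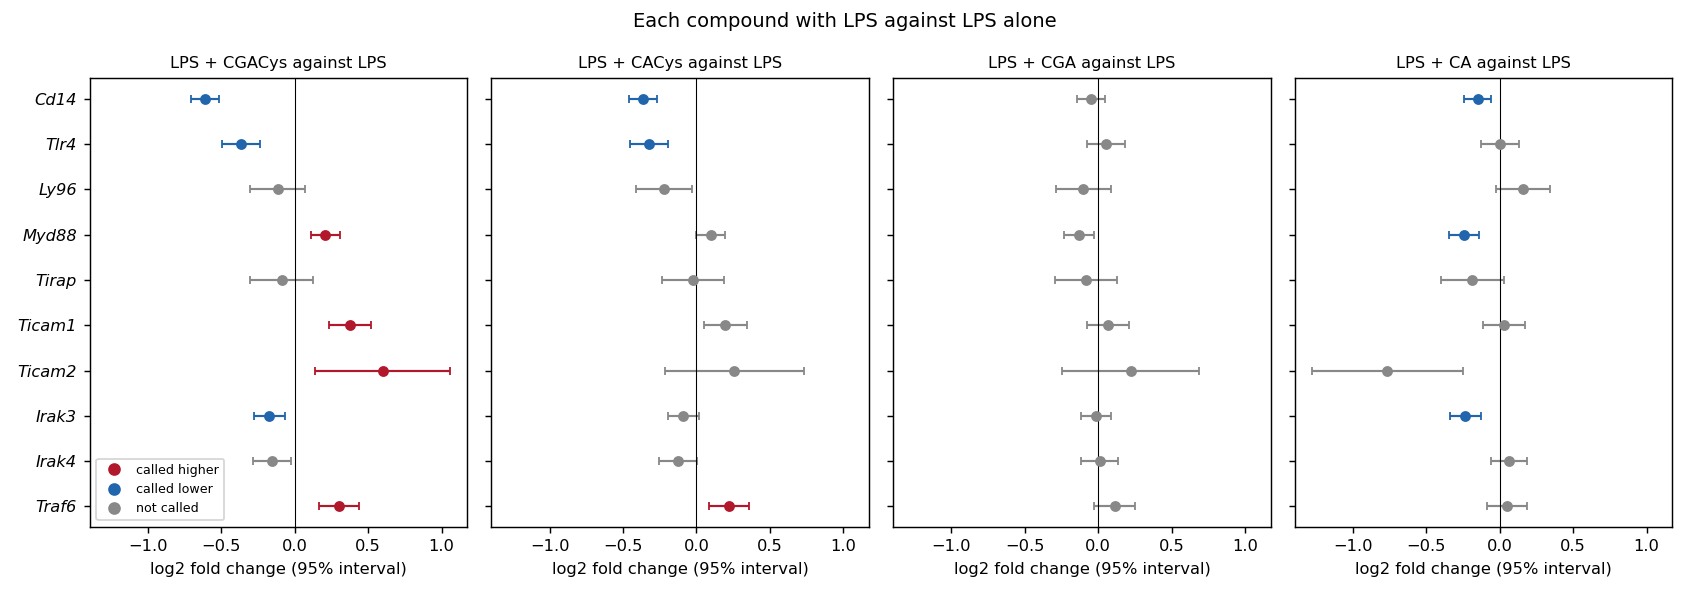
log2 fold change of each gene with each compound and LPS against LPS alone (x axis, 1 panel a compound) with its 95% interval; red points were called higher, blue lower, grey not called. Among called genes Cd14 with LPS + CGACys lies furthest to the left, at -0.61, and in the LPS + CGA panel no gene was called.

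Of the adaptors, Myd88, Ticam1 and Ticam2 were called higher with LPS + CGACys and Tirap was not called. Myd88 was called lower with LPS + CA. Myd88 had 151, 154 and 147 CPM with LPS + CGACys, 137, 148 and 134 CPM with LPS + CACys, 118, 118 and 122 CPM with LPS + CGA, and 115, 111 and 104 CPM with LPS + CA, against 128, 132 and 132 CPM with LPS. The LPS libraries thus lay between the adduct libraries above and the parent acid libraries below, with no overlap on either side. Of all tested genes, 44.2% did not overlap between LPS + CGACys and LPS, and 32.3% between LPS + CACys and LPS. The shares were 19.2% with LPS + CGA and 20.1% with LPS + CA. The log2 change of Myd88 was 0.21 (SE 0.05, edgeR adjusted p = 0.00161) with LPS + CGACys and -0.24 (SE 0.05, edgeR adjusted p = 0.00142) with LPS + CA. It was 0.10 (edgeR adjusted p = 0.207) with LPS + CACys and -0.13 (edgeR adjusted p = 0.28) with LPS + CGA, neither called. The LPS + CA call was kept without LPS + CA replicate 2, at -0.25 (edgeR adjusted p = 0.000751).

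Ticam1 had 34.9, 37.7 and 37.0 CPM with LPS + CGACys, 33.8, 33.1 and 30.1 CPM with LPS + CACys, and 27.9, 27.2 and 29.3 CPM with LPS. Both adduct groups lay wholly above LPS. It was called with LPS + CGACys (log2 0.38, SE 0.07, edgeR adjusted p = 0.000131) and not with LPS + CACys (log2 0.20, edgeR adjusted p = 0.058). That adjusted p ran from 0.031 to 0.215 over the alternatives and passed the threshold without LPS + CACys replicate 3 (log2 0.25, edgeR adjusted p = 0.031). With the parent acids it had 31.0, 28.9 and 28.6 CPM (LPS + CGA) and 27.5, 28.7 and 29.9 CPM (LPS + CA), with 95% intervals of -0.08 to 0.21 and -0.12 to 0.17 on the log2 scale.

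Ticam2 had 74, 87 and 54 counts with LPS + CGACys, 38, 80 and 52 with LPS + CACys, 49, 85 and 64 with LPS + CGA, 34, 36 and 25 with LPS + CA, and 45, 40 and 53 with LPS. At these counts its levels were imprecise. It was called higher with LPS + CGACys (log2 0.60, SE 0.22, edgeR adjusted p = 0.0448), and 6 of 13 alternatives kept that call, with adjusted p from 0.0279 to 0.209. The call was lost without LPS replicate 1 (edgeR adjusted p = 0.104), LPS replicate 2 (0.147), LPS replicate 3 (0.0509), LPS + CGACys replicate 1 (0.0916) or LPS + CGACys replicate 2 (0.209), without the filter on low counts (0.0565) and by DESeq2 (0.0549). The LPS + CA libraries, at 1.34 to 1.62 CPM, all lay below the LPS libraries, at 2.23 to 2.86 CPM, and within the Control range of 1.08 to 1.73 CPM. That difference, a log2 value of -0.77 with a 95% interval of -1.28 to -0.25, missed the threshold (edgeR adjusted p = 0.0591, range over the alternatives 0.0408 to 0.189). It passed with the replicate number in the model (edgeR adjusted p = 0.0408) and by DESeq2 (adjusted p = 0.0449). Tirap was called in none of the 4 comparisons, with means of 28.1 ± 2.54 CPM with LPS + CGACys, 29.3 ± 2.48 CPM with LPS + CACys, 28.2 ± 0.406 CPM with LPS + CGA, 26.3 ± 5.23 CPM with LPS + CA and 29.8 ± 2.30 CPM with LPS (SD, n = 3 each). The wide SD with LPS + CA came from replicate 2, at 20.3 CPM beside 28.9 and 29.8 CPM.

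Among the kinases and the ligase, Traf6 was higher with both adducts and Irak3 lower with LPS + CGACys and LPS + CA. Traf6 had 48.4, 50.7 and 46.7 CPM with LPS + CGACys and 46.2, 44.8 and 47.1 CPM with LPS + CACys, against 41.0, 38.1 and 39.3 CPM with LPS. All 6 adduct libraries lay above the LPS libraries. The log2 change was 0.30 (SE 0.07, edgeR adjusted p = 0.001) with LPS + CGACys and 0.22 (SE 0.07, edgeR adjusted p = 0.0248) with LPS + CACys. The LPS + CACys call, with adjusted p from 0.0161 to 0.104 over the alternatives, was lost without LPS replicate 2 (edgeR adjusted p = 0.104), LPS replicate 3 (0.0736), LPS + CACys replicate 1 (0.0702) or LPS + CACys replicate 3 (0.0818). With the parent acids Traf6 averaged 42.6 ± 2.27 CPM (LPS + CGA) and 40.9 ± 3.37 CPM (LPS + CA), where the 95% intervals of the log2 difference were -0.03 to 0.25 and -0.09 to 0.19.

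Irak3 had 154, 162 and 163 CPM with LPS + CGACys, 168, 164 and 177 CPM with LPS + CACys, 177, 189 and 170.2 CPM with LPS + CGA, and 158, 144 and 157 CPM with LPS + CA, against 186, 174 and 181 CPM with LPS. The LPS + CGACys and LPS + CA libraries lay wholly below LPS, and the other groups overlapped it. It fell by a log2 value of 0.17 with LPS + CGACys (SE 0.05, edgeR adjusted p = 0.0104) and of 0.24 with LPS + CA (SE 0.05, edgeR adjusted p = 0.003). Over the alternatives the adjusted p of the first ran from 0.000426 to 0.0623, and the call was lost without LPS replicate 1 (edgeR adjusted p = 0.0599) or LPS + CGACys replicate 1 (0.0623). That of the second ran from 0.000496 to 0.0553 and was lost in a model of the LPS and LPS + CA libraries only. Without LPS + CA replicate 2 the LPS + CA change was -0.19 (edgeR adjusted p = 0.0074). Every library with LPS, at 144 CPM or more, stayed far above Control, where the highest was 14.2 CPM.

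Irak4 was called with no compound. It had 32.6, 35.8 and 36.2 CPM with LPS + CGACys and 35.4, 35.3 and 35.8 CPM with LPS + CACys, against 37.5, 37.5 and 41.1 CPM with LPS. Both adduct groups lay below LPS without overlap, a property shared by 44.2% of all tested genes with LPS + CGACys and 32.3% with LPS + CACys. The log2 differences were -0.15 (95% interval -0.28 to -0.03, edgeR adjusted p = 0.0659) and -0.13 (95% interval -0.25 to 0.00, edgeR adjusted p = 0.199). The first passed in a model of the LPS + CGACys and LPS libraries only (edgeR adjusted p = 0.0461), within a range of 0.0461 to 0.292 over the alternatives.

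Each adduct was next set against its own parent acid, compounds that differ by the added cysteine, at the same dose and time. These pairs share no libraries. LPS + CGACys against LPS + CGA called 7 of the 10 genes, 3 higher and 4 lower, where 33.1% of all tested genes were called (18.2% higher and 14.9% lower). The groups of that pair did not overlap for 7 of the 10 genes and for 47.9% of all tested genes. LPS + CACys against LPS + CA also called 7, 3 higher and 4 lower, where 27.1% of all tested genes were called (15.2% higher and 11.9% lower). Here the groups did not overlap for 9 of the 10 genes and for 35.5% of all tested genes. In both pairs Cd14, Tlr4 and Irak4 were called lower and Myd88 higher with the adduct, and Irak3 was called in opposite directions.

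Cd14 had 913, 885 and 877 CPM with LPS + CGACys against 1313, 1298 and 1339.7 CPM with LPS + CGA, a log2 change of -0.56 (SE 0.05, edgeR adjusted p = 1.5e-10). With LPS + CACys it had 1061, 1029.6 and 1088 CPM against 1247, 1303 and 1128 CPM with LPS + CA, a log2 change of -0.21 (SE 0.05, edgeR adjusted p = 0.000816). No adduct library reached a library of its parent acid. The second call was lost in a model of the LPS + CACys and LPS + CA libraries only (edgeR adjusted p = 0.056, range over the alternatives 7.89e-06 to 0.056), and without LPS + CA replicate 2 it was -0.17 (edgeR adjusted p = 0.00127). Tlr4 changed by a log2 value of -0.42 (SE 0.06, edgeR adjusted p = 5.68e-06) in the CGA pair and -0.32 (SE 0.06, edgeR adjusted p = 0.000244) in the CA pair. The adduct libraries lay between 52.0 and 58.5 CPM and the parent acid libraries between 60.9 and 77.2 CPM. Without LPS + CA replicate 2 the CA pair gave -0.41 (edgeR adjusted p = 2.53e-07).

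Ly96 was called in the CA pair only. It had 15.6, 12.7 and 13.999 CPM with LPS + CACys, against 18.1, 18.7 and 18.1 CPM with LPS + CA, a log2 change of -0.38 (SE 0.09, edgeR adjusted p = 0.00223). With LPS + CGACys it had 15.32, 15.014 and 15.015 CPM, against 13.4, 16.4 and 15.9 CPM with LPS + CGA, where the groups overlapped and the 95% interval was -0.20 to 0.17 on the log2 scale. The difference between the pairs was 0.36 (95% interval 0.10 to 0.63) and did not pass (edgeR adjusted p = 0.153).

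Of the adaptors, Myd88 was higher by nearly the same amount in both pairs. The log2 change was 0.34 (SE 0.05, edgeR adjusted p = 2.83e-06) in the CGA pair and 0.34 (SE 0.05, edgeR adjusted p = 3.77e-06) in the CA pair, and their difference had a 95% interval of -0.14 to 0.14. All 6 adduct libraries, at 134 to 154 CPM, lay above all 6 parent acid libraries, at 104 to 122 CPM. Ticam1 rose in the CGA pair (log2 0.31, SE 0.07, edgeR adjusted p = 0.000695). In the CA pair its log2 difference was 0.17 (95% interval 0.03 to 0.31, edgeR adjusted p = 0.0664). In that pair the adjusted p ran from 0.0326 to 0.231 over the alternatives and passed without LPS + CACys replicate 3 (edgeR adjusted p = 0.0326).

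Ticam2 had 38, 80 and 52 counts with LPS + CACys against 34, 36 and 25 counts with LPS + CA, and it was called 2.03-fold higher (log2 1.02, 95% interval 0.52 to 1.52, edgeR adjusted p = 0.00202). In the CGA pair it had 74, 87 and 54 counts with LPS + CGACys against 49, 85 and 64 counts with LPS + CGA, where the groups overlapped (log2 0.38, 95% interval -0.06 to 0.82, edgeR adjusted p = 0.188). Tirap was called in neither pair, with 95% intervals of -0.22 to 0.20 in the CGA pair and -0.05 to 0.37 in the CA pair.

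Irak3 was the gene with opposite calls. It had 154, 162 and 163 CPM with LPS + CGACys, below 177, 189 and 170.2 CPM with LPS + CGA (log2 -0.16, SE 0.05, edgeR adjusted p = 0.0152). It had 168, 164 and 177 CPM with LPS + CACys, above 158, 144 and 157 CPM with LPS + CA (log2 0.15, SE 0.05, edgeR adjusted p = 0.0324). Neither pair overlapped. The CGA pair lost its call without LPS + CGA replicate 2 (edgeR adjusted p = 0.12) or LPS + CGACys replicate 1 (0.0839), within a range of 0.000824 to 0.12 over the alternatives. The CA pair, with a range of 0.0249 to 0.153, lost it without LPS + CA replicate 2 (0.113), LPS + CACys replicate 1 (0.0602) or LPS + CACys replicate 3 (0.153), with upper-quartile factors (0.0707), without the low-count filter (0.0722) and with only those groups in the model (0.14).

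Irak4 was lower with the adduct in both pairs, at a log2 value of -0.16 (SE 0.06, edgeR adjusted p = 0.0416) in the CGA pair and -0.19 (SE 0.06, edgeR adjusted p = 0.0227) in the CA pair. The adduct libraries, at 32.6 to 36.2 CPM, all lay below the parent acid libraries, at 37.1 to 41.4 CPM. These calls sat near the threshold. The CGA pair, with adjusted p from 0.025 to 0.224, lost it without LPS + CGA replicate 2 (edgeR adjusted p = 0.109), LPS + CGA replicate 3 (0.15), LPS + CGACys replicate 1 (0.224) or LPS + CGACys replicate 2 (0.0535), and without the low-count filter (0.0879). The CA pair, from 0.0104 to 0.0902, lost it without LPS + CA replicate 2 (0.0509), LPS + CACys replicate 1 (0.0601) or LPS + CACys replicate 2 (0.0663), without the filter (0.0518) and with only those groups in the model (0.0902).

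Traf6 rose in the CGA pair (log2 0.19, SE 0.07, edgeR adjusted p = 0.0265), with 48.4, 50.7 and 46.7 CPM with LPS + CGACys against 41.6, 45.2 and 41.0 CPM with LPS + CGA. The groups did not overlap. Its adjusted p ran from 0.0157 to 0.121, and the call was lost without LPS + CGA replicate 1 (edgeR adjusted p = 0.0877), LPS + CGA replicate 3 (0.113), LPS + CGACys replicate 1 (0.0592) or LPS + CGACys replicate 2 (0.121), and without the low-count filter (0.0687). In the CA pair the log2 difference was 0.17 (95% interval 0.04 to 0.31, edgeR adjusted p = 0.0536), which ran from 0.0198 to 0.266 and passed without LPS + CA replicate 3 (0.0198) and with a filter of 1 CPM in 3 libraries (0.047).

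**Figure D4:**
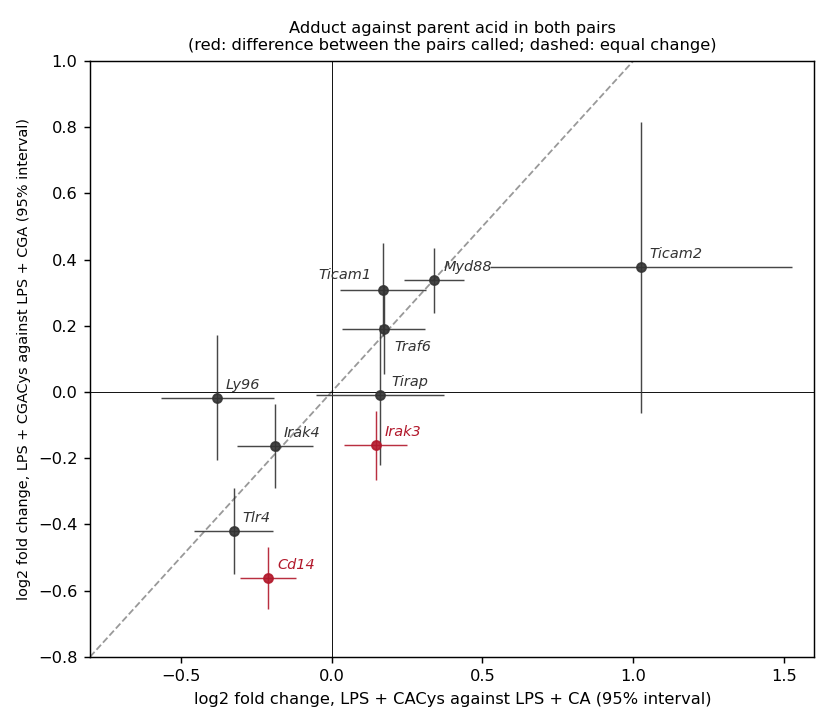
log2 fold change of each gene in LPS + CACys against LPS + CA (x axis) and in LPS + CGACys against LPS + CGA (y axis), with 95% intervals as lines; the dashed line marks equal change, and genes whose difference between the pairs was called are red. Myd88 lies on the line at 0.34 in both pairs, Cd14 lies below it at -0.21 and -0.56, and Irak3 lies right of 0 on the x axis and below 0 on the y axis.

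The difference between the pairs was tested directly, by subtracting the adduct effect in the CA pair from that in the CGA pair. Of the 10 genes 2 were called, both with a lower value in the CGA pair, where 2.18% of all tested genes were called (1.09% in each direction). For Cd14 the difference was -0.35 (SE 0.06, edgeR adjusted p = 0.00235), and it was called in all 19 alternatives. For Irak3 it was -0.31 (SE 0.07, edgeR adjusted p = 0.018), with adjusted p from 0.00498 to 0.0828 over the alternatives. The Irak3 call was lost without LPS + CGA replicate 2 (edgeR adjusted p = 0.0828), LPS + CACys replicate 3 (0.0561) or LPS + CGACys replicate 1 (0.0696). Without LPS + CA replicate 2 the values were -0.40 for Cd14 (edgeR adjusted p = 3.9e-06) and -0.27 for Irak3 (edgeR adjusted p = 0.0129). For Tlr4 the 95% interval of the difference was -0.28 to 0.09.

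The 2 adducts, which differ by the quinic acid ester, were also set against each other. LPS + CGACys against LPS + CACys called 1 of the 10 genes, where 1.8% of all tested genes were called (1.02% higher and 0.785% lower). That gene was Cd14, at 892 ± 18.9 CPM with LPS + CGACys and 1059.6 ± 29.1 CPM with LPS + CACys (SD, n = 3 each), a log2 change of -0.25 (SE 0.05, edgeR adjusted p = 0.00256). The 3 LPS + CGACys libraries all lay below the 3 LPS + CACys libraries, and 21.5% of all tested genes did not overlap between these groups. Among the other 9 genes the log2 difference lay between -0.08 (Irak3) and 0.34 (Ticam2), and the 95% interval of Tlr4 was -0.17 to 0.09. LPS + CGA against LPS + CA called 2 of the 10 genes, both higher, where 1.38% of all tested genes were called (0.634% higher and 0.747% lower). Ticam2 had 49, 85 and 64 counts with LPS + CGA, against 34, 36 and 25 counts with LPS + CA, a log2 change of 0.99 (95% interval 0.50 to 1.48, edgeR adjusted p = 0.036). Irak3 averaged 179 ± 9.39 CPM with LPS + CGA and 153 ± 7.77 CPM with LPS + CA (SD, n = 3 each), a log2 change of 0.22 (SE 0.05, edgeR adjusted p = 0.0235). Neither gene overlapped between these groups, as was so for 16.7% of all tested genes.

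Both calls of LPS + CGA against LPS + CA were lost when any of several libraries was left out. Their log2 changes ran from 0.875 to 1.073 (Ticam2) and from 0.18 to 0.256 (Irak3) over the alternatives. The Ticam2 call, with adjusted p from 0.00447 to 0.212 over the alternatives, was lost without LPS + CA replicate 2 (edgeR adjusted p = 0.0959), LPS + CGA replicate 1 (0.0507), LPS + CGA replicate 2 (0.212) or LPS + CGA replicate 3 (0.0911), and with only those groups in the model (0.157). The Irak3 call, from 0.00364 to 0.296, was lost without LPS + CA replicate 2 (0.0611), LPS + CGA replicate 1 (0.0599) or LPS + CGA replicate 2 (0.213), and with only those groups in the model (0.296).

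Read across all 6 groups, the genes took different orders. Cd14 was highest with LPS, LPS + CGA and LPS + CA, where LPS + CGA overlapped both of the others and LPS lay above LPS + CA, followed by LPS + CACys, LPS + CGACys and Control, each below the one before. Tlr4 was highest in Control, then came LPS + CGA, LPS + CA and LPS, where LPS + CA overlapped both of the others and LPS + CGA lay above LPS, and lowest were LPS + CACys and LPS + CGACys, which overlapped each other. Irak4 had a similar arrangement, with Control on top, the parent acids and LPS in the middle and both adducts at the bottom. Myd88 and Ticam1 ran from LPS + CGACys at the top to Control at the bottom, with LPS between the adducts and the parent acids for Myd88 and below all 4 compounds by mean for Ticam1. Ly96 was highest with LPS + CA and lowest in Control. In between, LPS lay wholly above LPS + CGACys and LPS + CACys, and LPS + CGA overlapped all 3 of these groups. Traf6 had neighbours that overlapped at every step. Tirap was highest in Control and overlapped among all 5 groups with LPS.

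Lists of other genes of the same pathway were described by counts. These counts are to be read beside the shares of all tested genes called, which were 62.2% in LPS against Control and, against LPS, 29.1% with LPS + CGACys, 14.3% with LPS + CACys, 0.724% with LPS + CGA and 7.72% with LPS + CA. Of 17 negative regulators of TLR signalling, 11 were higher and 3 lower in LPS against Control (median log2 0.44, against -0.02 over all tested genes). The A20 gene Tnfaip3, a deubiquitinase, averaged 180.0 ± 19.3 CPM with LPS, against 8.50 ± 0.834 CPM in Control (SD, n = 3 each; log2 4.40). Zc3h12a, which encodes the RNase Regnase-1, averaged 238 ± 12.6 CPM with LPS, against 16.3 ± 0.877 CPM in Control (log2 3.87). In LPS + CGACys against LPS 10 of the 17 were higher and 0 lower (median 0.25, against 0.02 over all tested genes). Atf3, a transcription factor that restrains TLR target genes, averaged 506 ± 16.6 CPM with LPS + CGACys and 320.1 ± 5.18 CPM with LPS (log2 0.66). Inpp5d, which encodes the phosphatase SHIP1, averaged 200.3 ± 6.02 CPM with LPS + CGACys and 138 ± 2.89 CPM with LPS (log2 0.54). Inpp5d was among the 3 genes lower in LPS against Control (log2 -1.75), with 464 ± 17.1 CPM in Control. Atf3 and Trim30a were among the 11 higher in that comparison. Trim30a averaged 732 ± 28.4 CPM with LPS + CGACys and 494 ± 55.3 CPM with LPS (log2 0.57), and its value is uncertain because it has near-identical family members that could share reads.

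For the other compounds no difference between counts was tested. With LPS + CACys 6 were higher and 0 lower, and 3 were called without LPS replicate 1, LPS replicate 3 or LPS + CACys replicate 2. Inpp5d averaged 190.3 ± 3.04 CPM and Atf3 416 ± 18.8 CPM with LPS + CACys, log2 changes of 0.46 and 0.38. With LPS + CA 1 was higher (Otulin, log2 0.19) and 2 lower (Trim30a, -0.49, and Zc3h12a, -0.17), and 1 was called without LPS replicate 1 or LPS replicate 2. With LPS + CGA 0 were called by edgeR, with 3 at an unadjusted p under 0.05, 1 called without LPS replicate 3 and 1 by DESeq2.

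Of 19 kinases and ligases of the MyD88 route, 12 were higher and 4 lower in LPS against Control, where 30.6% of all tested genes were higher and 31.6% lower. The ligase gene Peli1 averaged 138 ± 5.92 CPM with LPS, against 34.5 ± 2.22 CPM in Control (log2 2.002), the kinase gene Map3k8 averaged 16.3 ± 0.418 and 4.12 ± 0.569 CPM (log2 1.99), and Peli2 averaged 0.699 ± 0.377 and 3.24 ± 0.516 CPM (log2 -2.20; SD, n = 3 each). In LPS + CGACys against LPS 7 of the 19 were higher and 0 lower, where 16.1% of all tested genes were higher and 13% lower. Rnf31 and Rbck1, 2 subunits of the linear ubiquitin ligase, had log2 changes of 0.27 and 0.20, and Peli1 averaged 164 ± 5.30 CPM with LPS + CGACys (log2 0.24). Sharpin, another subunit of that ligase, was not called (log2 -0.02, edgeR adjusted p = 0.89). Peli1 was lower with both parent acids, at 112 ± 3.92 CPM with LPS + CGA (log2 -0.30) and 111 ± 2.37 CPM with LPS + CA (log2 -0.32). With LPS + CA the kinase gene Irak2 was also lower, at 187 ± 4.45 CPM against 232 ± 13.3 CPM with LPS (log2 -0.31), and Ikbkg, the regulatory subunit of the IKK complex, was higher (log2 0.19). With LPS + CACys 1 was called (Rbck1, log2 0.15), 0 without LPS replicate 1, LPS replicate 3 or LPS + CACys replicate 2, and 2 without LPS replicate 2 or LPS + CACys replicate 3. The LPS + CGA call of Peli1 was lost without LPS replicate 1, LPS replicate 2 or LPS + CGA replicate 3, where 0 of the 19 were called, and 2 were called without LPS replicate 3.

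Of 10 genes of the TRIF route, 5 were higher and 2 lower in LPS against Control, near the 62.2% of all tested genes called there. The kinase gene Ikbke averaged 467 ± 22.3 CPM with LPS, against 44.5 ± 1.97 CPM in Control (log2 3.39), and the TBK1 adaptor genes Azi2 and Tank changed by 1.13 and 0.82 on the log2 scale. Tbkbp1, also a TBK1 adaptor gene, was called lower in LPS against Control (log2 -0.22) and in LPS + CGACys against LPS (log2 -0.18). Casp8, Azi2 and Ikbke were higher with LPS + CGACys (log2 0.48, 0.33 and 0.31) and with LPS + CACys (0.30, 0.22 and 0.27), and lower with LPS + CA (-0.28, -0.19 and -0.34). LPS + CGACys had 3 higher and 2 lower of the 10, LPS + CACys 3 higher and 0 lower, and LPS + CA 0 higher and 4 lower. The LPS + CA count was 2 without LPS replicate 1 or LPS + CA replicate 2 and 1 without LPS replicate 2. With LPS + CGA 1 was called (Tank, log2 -0.20), 0 without LPS replicate 1, LPS replicate 2, LPS + CGA replicate 1 or LPS + CGA replicate 3, and 3 without LPS replicate 3.

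Of 14 genes for delivery, trafficking and co-receptors 13 were tested, since Lbp, the gene of the serum LPS-binding protein, had at most 1 count in any library. In LPS against Control 4 were higher and 5 lower, again near the 62.2% of all tested genes. Syk was at 367 ± 9.68 CPM with LPS and 139 ± 6.98 CPM in Control (log2 1.40), and Cnpy4, whose product associates with TLR4, was at 11.9 ± 0.395 and 29.6 ± 0.985 CPM (log2 -1.31; SD, n = 3 each). Cd180 and Ly86 encode a receptor and partner related to TLR4 and MD-2. With LPS + CGACys 2 of the 13 were higher and 2 lower. The higher genes were Cd180, at 70.8 ± 2.07 CPM against 43.8 ± 4.27 CPM with LPS (log2 0.69), and Ly86, at 53.2 ± 4.20 against 42.4 ± 1.61 CPM (log2 0.33), and Cnpy4 was among the lower (log2 -0.49). Cd180 was also higher with LPS + CACys (log2 0.43) and lower with LPS + CA (log2 -0.39). With LPS + CA 2 were called, both lower, and 1 without LPS replicate 2. With LPS + CGA 0 were called by edgeR, with 4 at an unadjusted p under 0.05, and 0 by DESeq2.

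**Figure D5:**
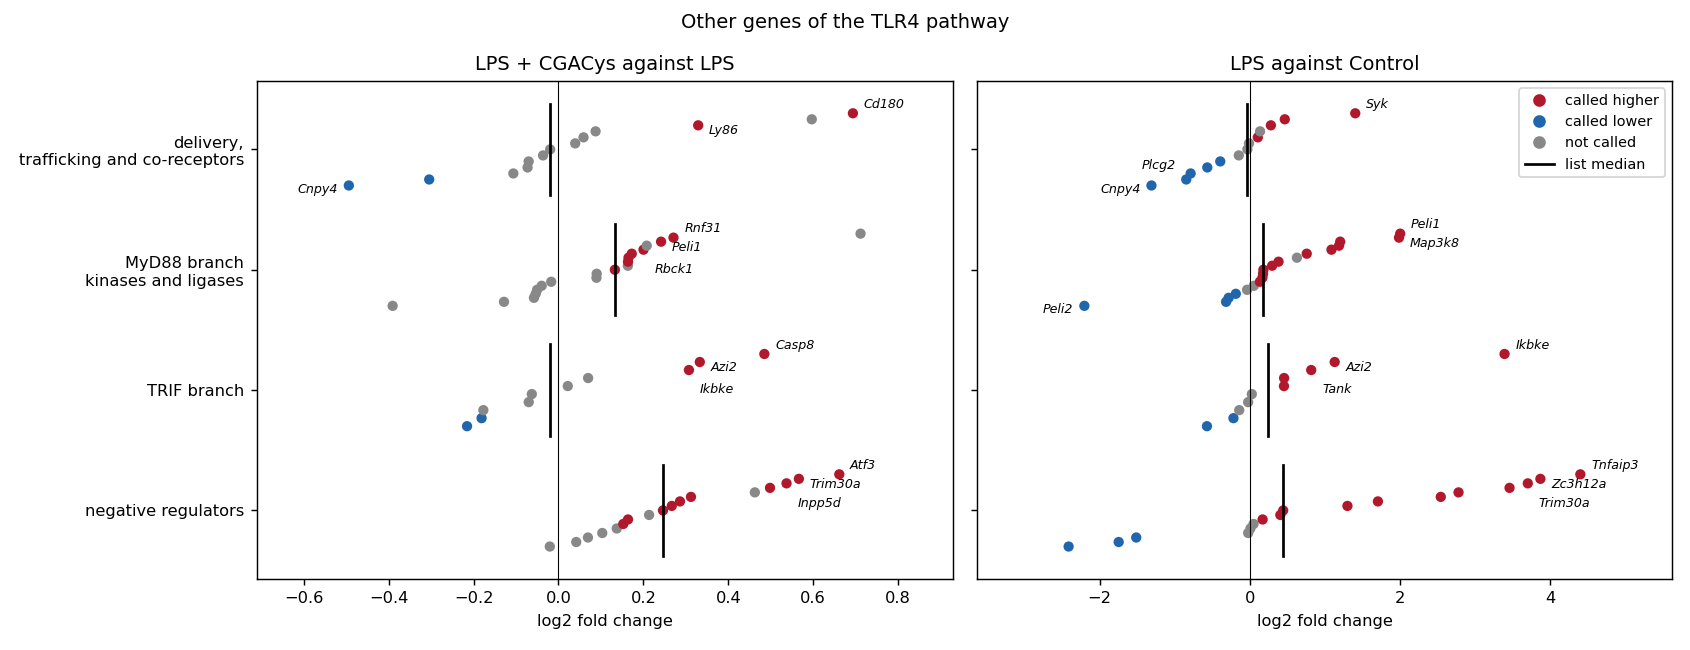
log2 fold change of each tested gene of 4 lists from the TLR4 pathway (rows) in LPS + CGACys against LPS (left) and LPS against Control (right, on a wider axis); red points were called higher, blue lower, grey not called, and black bars are list medians. The negative regulators have the highest median in both panels, 0.25 on the left and 0.44 on the right.

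For each member called against LPS, the protein-coding genes with the most similar levels were found by Pearson's r of log2 CPM over the 15 libraries with LPS. These libraries share groups and scaling, so the r values describe the pattern only. Cd14 was closest to Colgalt1 (r = 0.979), Sltm (0.973) and Rhoq (0.972), and Tlr4 to Kcnj2 (0.963), Abcb1b (0.95) and Ahcyl1 (0.948). Myd88 was closest to Ctsc (0.97), Scarb2 (0.966) and Cd47 (0.966), Ticam1 to Ktn1 (0.944), Etv3 (0.942) and Mllt6 (0.931), and Ticam2 to Dennd6b (0.869), Dctn4 (0.865) and Iqgap3 (0.863). Irak3 was closest to Itgal (0.943), Trps1 (0.903) and Ppp1r12b (0.897), and Traf6 to Ccdc186 (0.947) and Myh9 (0.94). Over all 18 libraries, where Control sets much of the spread, Irak3 was closest to Il12b (0.998), Cybb (0.997) and Slc7a2 (0.997), Tlr4 to Pip5k1c (0.986) and Myd88 to Marcksl1 (0.992).

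All 10 are protein-coding genes, and the counts cover whole genes without separating transcripts. On build GRCm38.p6 (mm10) the receptor genes are at chr18:36725064-36726815 (Cd14), chr4:66827551-66846581 (Tlr4) and chr1:16688456-16709605 (Ly96). The adaptor genes are at chr9:119335934-119340018 (Myd88), chr9:35184391-35200291 (Tirap), chr17:56269462-56276767 (Ticam1) and chr18:46558231-46574533 (Ticam2). Irak3 is at chr10:120141648-120202130, Irak4 at chr15:94543613-94568317 and Traf6 at chr2:101678420-101701668. RefSeq places the lncRNA gene Gm39318 inside Tirap, where it had 0 to 6 counts, and 3 lncRNA genes overlapping Irak3 that were not matched to the count table. Whether counting used strand is not given in the sources used here, so reads of overlapping genes cannot be told apart.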

How the data were processed

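RNA of 18 RAW264.7 libraries was quantified by the submitters, who deposited raw counts per gene. Per the submitters' processing notes, mm10, HISAT and DESeq2 were used. Versions, the counting program, its strand setting and the annotation are not given in the sources used here. Library totals of 16105817 to 25624935 counts set the precision. Here all 6 groups were fitted together in edgeR 4.0.16 (R 4.3.3) with the default expression filter, TMM factors, robust quasi-likelihood F tests and Benjamini-Hochberg adjustment over 13251 genes. An adjusted p of 0.05 or less was called. The standard error (SE) was taken as the size of the log2 change over the root of its F value, and 95% intervals follow from it. Levels are TMM-scaled CPM. The steps were tested on simulated counts.

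The members, lists and tests were chosen with earlier results of these data known. All 10 members were named in every comparison, plus up to 3 called genes with the largest change per list and comparison against LPS or Control, and 3 most similar genes per member called against LPS (log2 CPM, prior count 2). Over all 18 libraries only some of these are given. The results of some genes that these rules name are not reported here. Macrophage and other cell type markers were summed. Alternatives were RLE and upper-quartile factors, no low-count filter, at least 1 CPM in 3 libraries, a replicate term, only the groups compared, DESeq2 1.42.0 and omission of each library. Of the tested genes 12411 matched a RefSeq symbol and 840 did not. No library was left out. No sequences were used here.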

Additional observations from a re-analysis of the deposited data

Results flagged for a closer look

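The adduct effect differed between the chlorogenic and caffeic acid pairs for 2 of the 10 genes, by a test of the difference itself, which called 2.18% of all tested genes. For Cd14 the adduct effect in CGA minus that in CA was -0.35 on the log2 scale (SE 0.065, edgeR adjusted p = 0.00235), from -0.56 in the CGA pair and -0.21 in the CA pair. For Irak3 it was -0.31 (SE 0.072, edgeR adjusted p = 0.018, range over the alternatives 0.00498 to 0.0828), from -0.16 in the CGA pair and 0.15 in the CA pair. For Irak3 all LPS + CGACys libraries lay below all LPS + CGA libraries, and all LPS + CACys libraries lay above all LPS + CA libraries. The causes were not tested.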

How the results depend on the processing

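Among 100 fold changes of members, 41 were called, and none of these changed sign in the alternatives run (1356 in all). The share of all tested genes called ran from 0.724% in LPS + CGA against LPS to 62.2% in LPS against Control. The comparisons share libraries, so the 100 values are not separate results. Values called under neither setting changed sign 38 times, at log2 sizes up to 0.08. Calls were lost 41 times when a library was left out and 15 times otherwise, and gained 3 and 4 times. When the model held only the groups compared, the number of members called was 1 in LPS + CA against LPS (3 with all groups), 4 in LPS + CACys against LPS + CA (7) and 0 in LPS + CGA against LPS + CA (2). By DESeq2 the last was 1, where Ticam2 had no adjusted p. The causes were not tested. With each library left out in turn, the members called numbered 8 to 9 in LPS against Control, 2 to 3 in LPS + CA, 0 in LPS + CGA, 2 to 3 in LPS + CACys and 5 to 7 in LPS + CGACys, each against LPS. They numbered 4 to 7 in LPS + CGACys against LPS + CGA, 5 to 8 in LPS + CACys against LPS + CA, 0 to 2 in LPS + CGA against LPS + CA, 1 in LPS + CGACys against LPS + CACys and 1 to 2 for the difference between the pairs. List counts moved by over 1.5 times, or to or from 0, in 41 of 260 alternatives.

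No pairing of the libraries by replicate number was seen, which does not exclude one. Deviations of same-numbered libraries correlated at -0.125 to 0.106 over 45 pairs of libraries, and 3 of 18 libraries correlated best with their own number. With the replicate block the members called numbered 4 in LPS + CA against LPS, where Ticam2 was added, and the counts in the other comparisons were as without it (9, 0, 3, 7, 7, 7, 2, 1 and 2).

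The share of all genes called also moved. In LPS + CGA against LPS 96 genes were called, against 290 without the filter, 197 with the replicate block, 283 with only those groups and 254 by DESeq2. Leaving out 1 library left 0 (LPS replicate 2 or LPS + CGA replicate 3), 2 (LPS replicate 1), 11 (LPS + CGA replicate 1), 63 (LPS + CGA replicate 2) or 233 (LPS replicate 3). In LPS + CGA against LPS + CA 183 were called, against 614 without the filter, 3 with only those groups and 405 by DESeq2. It was 45, 57 and 87 without LPS + CGA replicate 2, 3 and 1, and 87, 448 and 1063 without LPS + CA replicate 2, 1 and 3. In LPS + CGACys against LPS + CACys 239 were called, against 409, 560 and 377 in the same settings, 87 and 95 without LPS + CGACys replicate 1 and 2, and 88 without LPS + CACys replicate 3, and 157 to 198 without each of the others. With only the groups compared, 434 against 1023 were called in LPS + CA against LPS and 2145 against 3589 in LPS + CACys against LPS + CA. The first was 541 and 642 without LPS replicate 2 and 1. In LPS + CACys against LPS 1890 were called, and 1223 and 1249 without LPS + CACys replicate 2 and 1. For the difference between the pairs 289 were called, against 457 without the filter, 166 with only those groups and 162 to 519 with a library left out, the extremes being LPS + CGACys replicate 1 and LPS + CA replicate 3. Ticam2, at 20 to 87 counts a library, is limited by depth.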
